A study of Mus musculus with 6 samples.

Results

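The clustered histone genes encode the linker and core histones that package DNA, and were taken as every row of the deposited table whose symbol starts with Hist1h, Hist2h, Hist3h or Hist4h. There were 69 such rows of 24972 in all, 6 for linker histones (H1) and 63 for core histones, of which 19 were H2A, 19 H2B, 12 H3 and 13 H4. Each value is a read count, normalized by the authors, in 1 of 6 RNA libraries of cardiomyocytes from mice of genotype MX1gfp, an interferon reporter strain that both groups share. The injection into the peritoneum was vehicle (PBS) for 3 libraries, and for the other 3 it was 1 dose of Doxorubicin at 25 mg per kg, an anthracycline that poisons topoisomerase II. All hearts were taken 48 hours later, and myocytes from digested ventricles were settled by gravity, with no sorting named. The labels give 3 mice per group but no age, sex or sequencing batch, and they do not tie each library to 1 mouse, so p-values measure the spread between these libraries.

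Histone octamers of H2A, H2B, H3 and H4 wrap DNA into nucleosomes, and H1 binds the DNA that enters and leaves them. Most clustered histone genes are transcribed in S phase, have no introns, and give messages that end after a conserved stem-loop bound by Slbp in place of a poly(A) tail. Some clustered genes also give polyadenylated messages from a downstream site, mainly in cells that have stopped dividing, as most adult cardiomyocytes have. Replacement histones such as H3.3 come from single genes outside the clusters and are made through the whole cell cycle. The labels do not say whether poly(A) RNA was selected before sequencing.

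The stem-loop is shown for 4 genes whose values carry the results below, because its place in the message bears on which transcripts a library can hold. Each line gives 30 bases of the longest GENCODE M21 transcript, on the strand of the message, with the 16 letters of the stem-loop in capitals.
Hist1h1c: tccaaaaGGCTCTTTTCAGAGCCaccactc
Hist2h2aa1: ctaaaaaGGCTCTTTTCAGAGCCacccact
Hist1h4h: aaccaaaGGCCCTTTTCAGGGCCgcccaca
Hist1h4i: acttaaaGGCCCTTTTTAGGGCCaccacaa
The H1 and H2A sites shared the same capitals. The H4 sites differed from them in the stem, and that of Hist1h4i also in the loop. A search of the message strand for the 16-letter histone stem-loop consensus found a match in the longest transcript of 45 of the 69 genes. Counted per transcript, 0.221% of all 141767 annotated transcripts held a match. A gene without a match may still have the stem-loop, since some annotated transcripts are short, such as those of Hist1h4k (312 bases) and Hist1h2bl (381 bases). Those of Hist1h2bc (1156 bases) and Hist2h2be (2620 bases) were longer and also held no match. Hist1h2al and Hist3h2bb-ps, again without a match, are annotated as processed pseudogenes. The variant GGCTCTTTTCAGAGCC was in 25 members, and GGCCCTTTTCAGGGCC in 7, all of them H4 genes.

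Of the 69 rows, 9 reached a mean of 10 normalized counts over the 6 libraries, the minimum set for testing. That is 13.0% of the members, against 50.0% of all rows in the table. Another 43 rows (62.3%, against 18.4% of all rows) had a value above 0 in some library but a lower mean, and 17 rows (24.6%, against 31.6%) were at 0 in every library. The rows at 0 were Hist1h1t, Hist1h2aa, Hist1h2ag, Hist1h2ah, Hist1h2ai, Hist1h2ak, Hist1h2ao, Hist1h2ba, Hist1h2bl, Hist1h3a, Hist1h3c, Hist1h3h, Hist1h4b, Hist2h2aa2, Hist2h2bb, Hist2h3b and Hist4h4. Hist1h1t, Hist1h2aa and Hist1h2ba encode testis histones. Of the 43 low rows, 37 had a mean under 2, 10 were above 0 in 1 library only, and 3 were above 0 in all 6 libraries.

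**Figure D1:**
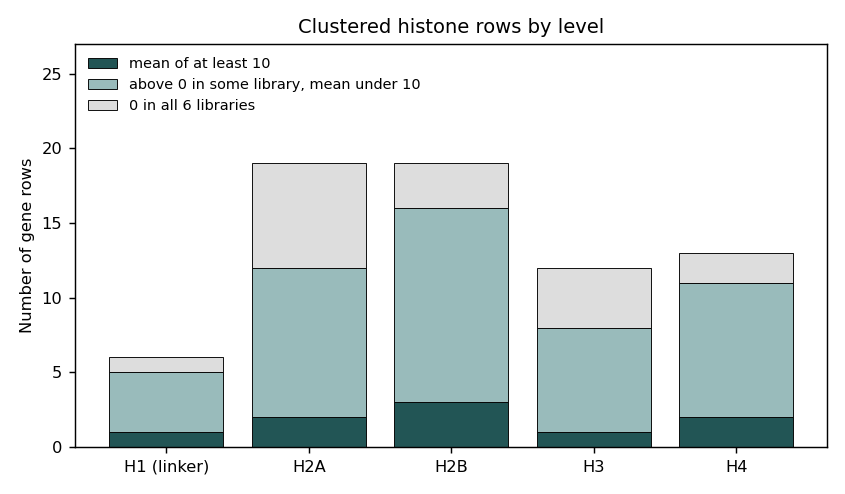
Number of clustered histone rows (vertical axis) by histone class (horizontal axis), split into rows with a mean of at least 10 normalized counts, rows with a lower mean, and rows at 0 in all 6 libraries. The tested rows number 1, 2, 3, 1 and 2 in H1, H2A, H2B, H3 and H4.

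The annotated transcripts, which the choice of members did not use, were set beside these levels as a description. Among the 9 tested genes, the longest transcript ran more than 100 bases past the stem-loop in 5, ended within 100 bases of it in 2, and held no match in 2. Among the other 60 genes these counts were 18, 20 and 22, where no match can also mean that the annotation stops short of the stem-loop. The transcript of Hist1h1c ran 840 bases past the stem-loop, that of Hist3h2a 1643 and that of Hist1h2be 1861, whereas those of Hist1h4h and Hist2h2aa1 ended 46 and 35 bases past it. The median longest transcript was 1156 bases in the tested genes and 522 in the rest, and a longer transcript collects more reads at the same abundance. A set of RNAs that carry no poly(A) tail, such as the RNA of the mitochondrial processing RNase (Rmrp), the RNase P RNA (Rpph1) and telomerase RNA (Terc), was also low. Of its 11 names 8 were in the table, and 4 of those were at 0 throughout (Terc, Rprl1, Rprl2 and Rprl3). The 8 together summed to between 4.33 and 15.8 normalized counts per library. Rn7sk, Rny1 and Rny3 were the names not in the table. Why the RNAs of this set were low was not tested.

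Sequence shared with other genes limits what a single row can say. A 50-base window was called shared when the same letters occur in a transcript of another gene. The median share was 30.1% in the tested genes and 53.0% in the rest. Hist2h2aa1 and Hist2h2aa2, 2 copies of 1 H2A gene on chromosome 3, showed this most plainly, with 89.4% and 100% of windows shared, and all of their signal stood in the Hist2h2aa1 row. The H3 genes Hist2h3c1 and Hist2h3c2 (100% and 63.5% shared) swapped it between libraries. Hist2h3c1 held 18.5 in vehicle replicate 1 and 32.5 in doxorubicin replicate 1 and was at 0 in the other 4 libraries, whereas Hist2h3c2 was at 0 in those 2 and held 15.8 to 20.5 in the other 4. All of these shares are also found in Gm20634, a GENCODE gene that is no member and overlaps Hist2h2aa1 and Hist2h3c1, and where reads from it were placed was not tested. Each pair of copies is therefore best read as a sum.

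The libraries differed in depth and in makeup, which touches every comparison below. The values summed to 7217950 to 7500390 per vehicle library and 5410780 to 6498370 per doxorubicin library, and the reads behind them were estimated at 7710000 to 11400000 and 3670000 to 6170000. About 1 read was worth 0.635 to 0.958 normalized counts with vehicle, and 1.05 to 1.48 after doxorubicin. The 7 cardiomyocyte markers were high in every library, so the label of the cells was borne out, but they summed to 555255 to 655591 with vehicle and, after doxorubicin, to 492270, 161589 and 139851. The 8 macrophage markers summed to 1845 to 1980 and then to 2819, 5323 and 8507, and the 7 fibroblast markers to 6081 to 7984 and then to 8364, 22707 and 16161. Dcn alone held 18072 and 11326 of the fibroblast sums in doxorubicin replicates 2 and 3, against 2446 to 2905 with vehicle. Of the 7 fibroblast markers 6 had a positive log2 difference. Col3a1 was lower in those replicates, at 740 and 1185 against 1412 to 2268 with vehicle. The 5 neutrophil markers summed to 9.88 to 20.8 and then to 50.8, 535 and 403, with Ly6g, which defines the cell, at 0 with vehicle and at most 1.48 elsewhere. The 7 endothelial markers summed to 12374 to 15910 and then to 20501, 19082 and 24433. Erythroid markers set doxorubicin replicate 1 apart, with sums of 1211 to 2104 and then of 9027, 250 and 421. Mural markers overlapped between groups (8751 to 12308 against 9524 to 12348), and lymphocyte markers summed to 52.4 or less in every library. In RNA from a mixed suspension, fewer cells of a type and less RNA per cell cannot be told apart. The part of these shifts in the histone values was not tested.

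The signal of the clustered linker rows came almost entirely from Hist1h1c, also called H1f2, which encodes a main somatic H1 subtype. It lies on chromosome 13 from 23738808 to 23740367 (GRCm38, plus strand) and held 92.9% to 97.9% of the linker sum in every library. With vehicle it held 299, 257 and 259, and after doxorubicin 268, 790 and 356, in the order of the replicate numbers. Doxorubicin replicate 2 stood far above the rest and replicate 3 somewhat above, while replicate 1 fell inside the vehicle range. The group means were 272 ± 23.6 and 471 ± 279 (SD, n = 3 each), a log2 difference of 0.64 (SE 0.36, limma adjusted p 0.234).

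The other linker genes were near the floor of the measurement. Hist1h1e, another somatic H1 gene, had 9.30, 6.60 and 13.0 with vehicle and 8.43, 12.2 and 4.62 after doxorubicin, so the groups overlapped. Its annotated transcript overlaps that of Hist1h2be, with which it shares 23.8% of its windows. Hist1h1d reached at most 4.89 and Hist1h1a at most 6.07, while Hist1h1b, an H1 gene of dividing cells, held 0.635 in vehicle replicate 1, about 1 read, and 0 elsewhere. Hist1h1t, the testis H1, was at 0 in every library. H1f0, a linker histone gene outside the clusters that accumulates in non-dividing cells, had 1186, 1178 and 1115 with vehicle and 1176, 971 and 931 after doxorubicin. Its log2 difference was -0.18 (SE 0.15, limma adjusted p 0.407), and 0.12 when the libraries were scaled to equal totals, a scaling that moved the median of all genes to 0.30.

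Among clustered core genes with a mean of at least 50, the H4 gene Hist1h4h (chromosome 13, 23531050 to 23531519) differed most on the log2 scale between doxorubicin libraries. It held 128, 107 and 85.3 with vehicle and 62.99, 507 and 183 after doxorubicin. As for Hist1h1c, doxorubicin replicate 2 was highest and replicate 3 next, but replicate 1 lay below every vehicle library. The means were 107 ± 21.4 and 251 ± 230 (SD, n = 3 each), a log2 difference of 0.77 (SE 0.65, limma adjusted p 0.413). Hist1h4i, a second H4 gene (chromosome 13, 22040636 to 22041362), had 11.0, 0.931 and 15.5 with vehicle and 13.6, 20.9 and 28.6 after doxorubicin. Its log2 difference of 1.54 (SE 0.83, limma adjusted p 0.211) was the largest of the tested members and leaned on the single read of vehicle replicate 2, without which it was 0.59. H4 genes share much of their coding sequence, 45.8% of windows for Hist1h4h and 28.9% for Hist1h4i, so reads may pass between their rows.

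Hist1h2bc, an H2B gene (chromosome 13, 23684199 to 23692908), had the highest value of any member in every library. Its values were 642, 506 and 489 with vehicle and 454, 953 and 608 after doxorubicin, so only replicate 2 lay above all vehicle libraries. The log2 difference was 0.24 (SE 0.27, limma adjusted p 0.543). Hist1h2be, an H2B gene with a long annotated 3′ extension (chromosome 13, 23583670 to 23621124), held 33.1, 16.1 and 6.24 with vehicle and 6.40, 68.7 and 48.8 after doxorubicin. Here both replicates 2 and 3 stood above every vehicle library and replicate 1 with the lowest of them. The log2 difference was 0.87 (SE 0.91, limma adjusted p 0.512). Hist2h2be, an H2B gene on chromosome 3 (96221119 to 96223738) with no shared window, had a difference of -0.16 (SE 0.22, limma adjusted p 0.616), which was 0.13 with equal totals and 0.0009 with library weights, from values of 91.7, 73.1 and 76.9 against 71.3, 90.2 and 56.7.

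Both tested H2A rows changed little against their spread. Hist2h2aa1 (chromosome 3, 96245497 to 96246082) held 244, 239 and 176 with vehicle and 195, 344 and 216 after doxorubicin, with a log2 difference of 0.16 (SE 0.25, limma adjusted p 0.654). Hist3h2a (chromosome 11, 58954685 to 58956830), whose annotation overlaps Trim17, held 35.1, 25.2 and 27.1 against 35.5, 28.2 and 38.9, a difference of 0.23 (SE 0.27, limma adjusted p 0.561). Of H3, Hist2h3c2 alone passed the minimum (chromosome 3, 96238108 to 96239127), and its own difference was -0.04 (SE 1.55, limma adjusted p 0.987), from values that alternate with those of Hist2h3c1. The pair together held 18.5, 20.5 and 15.8 with vehicle and 32.5, 17.1 and 17.4 after doxorubicin, where replicate 1 was the high library.

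**Figure D2:**
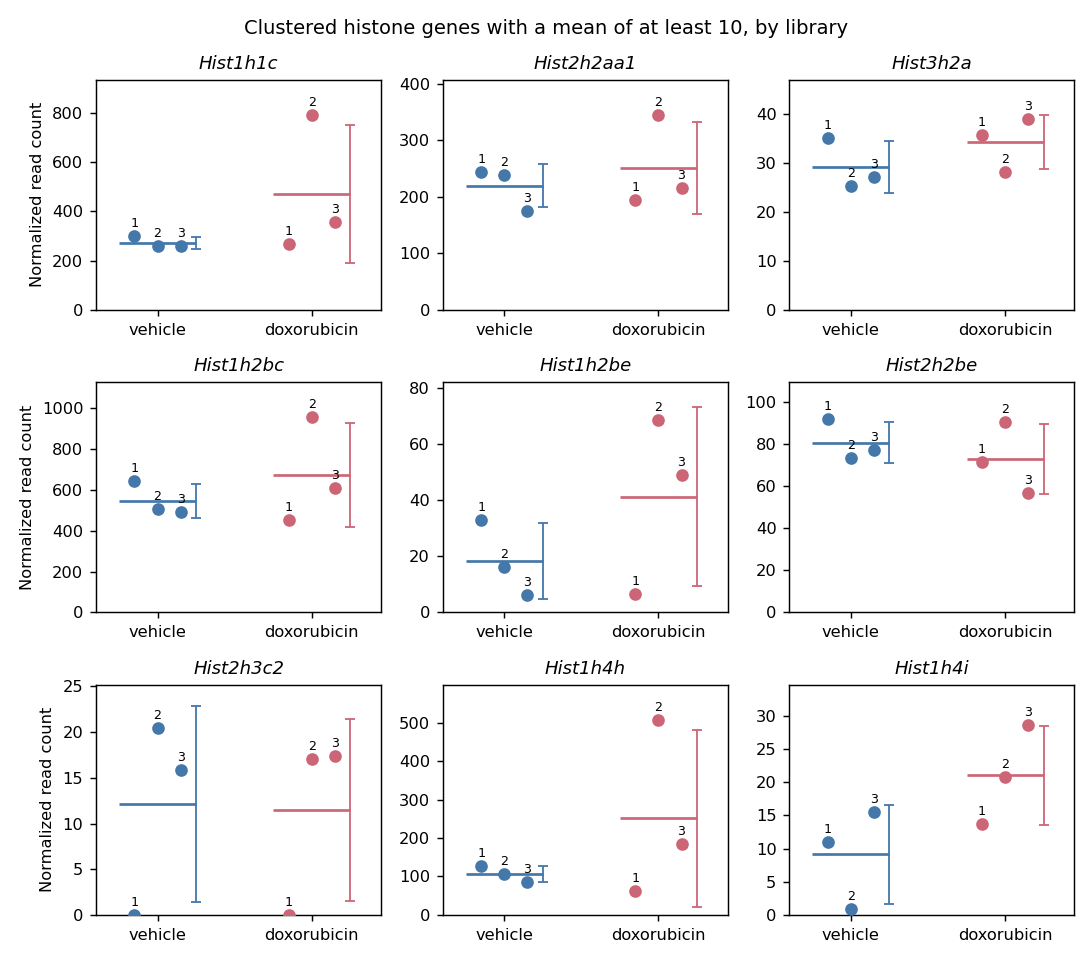
Normalized read count (vertical axis) of each of the 9 tested clustered histone genes by library, with replicate numbers beside the points, horizontal lines at the group means and bars of 1 SD. Doxorubicin replicate 2 is the highest library for Hist1h1c, Hist1h4h, Hist1h2bc, Hist1h2be and Hist2h2aa1, and the groups overlap in all 9 genes.

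Per kilobase of the longest annotated transcript, the vehicle means ran in the order Hist1h2bc (472), Hist2h2aa1 (374), Hist1h4h (227), Hist1h1c (174), Hist2h2be (30.8), Hist3h2a (13.6), Hist1h4i (12.6), Hist2h3c2 (11.9) and Hist1h2be (7.37). These levels depend on which transcript is taken. The lengths are from GENCODE M21, whereas the series' design text names RefSeq genes for the alignment, so the counted stretch may differ. After doxorubicin the order of the first 4 was Hist1h2bc (581), Hist1h4h (534), Hist2h2aa1 (429) and Hist1h1c (302). On this scale Hist1h4h stood above Hist2h2aa1 in doxorubicin replicates 2 and 3 but not in replicate 1, and its mean leaned on replicate 2.

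With all 6 libraries, limma called 0 of the 9 tested members at an adjusted p under 0.05, where it called 0.0% of the 12477 genes tested. At an unadjusted p under 0.05 there were 0 of the 9 members, against 35.9% of all genes tested. The groups overlapped in all 9 members, against 41.8% of genes tested whose groups did not overlap. Of the 9 differences 7 were positive, with a median of 0.24, and the median over all genes tested was -0.0046. Because the members had to pass a minimum mean, these counts describe 9 rows and not the whole family.

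Doxorubicin replicate 1 decided this outcome. Without it, limma called 3 of the 9 members higher, against 41.1% of all genes tested called in either direction and 19.3% called higher. They were Hist1h4h at 1.52 (SE 0.39, limma adjusted p 0.0157), Hist1h1c at 0.96 (SE 0.30, adjusted p 0.0331) and Hist1h2be at 1.87 (SE 0.59, adjusted p 0.0365). Weighting the libraries by their estimated precision, which gave that library a weight of 0.277, called 2 members higher, Hist1h1c and Hist1h4h, against 34.2% of all genes called in either direction and 15.7% called higher. Without doxorubicin replicate 2 the difference of Hist1h1c was 0.19 and that of Hist1h4h 0.03, while Hist1h2bc and Hist2h2aa1 turned to -0.04 and -0.08. Without doxorubicin replicate 3 limma again called 0 members.

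**Figure D3:**
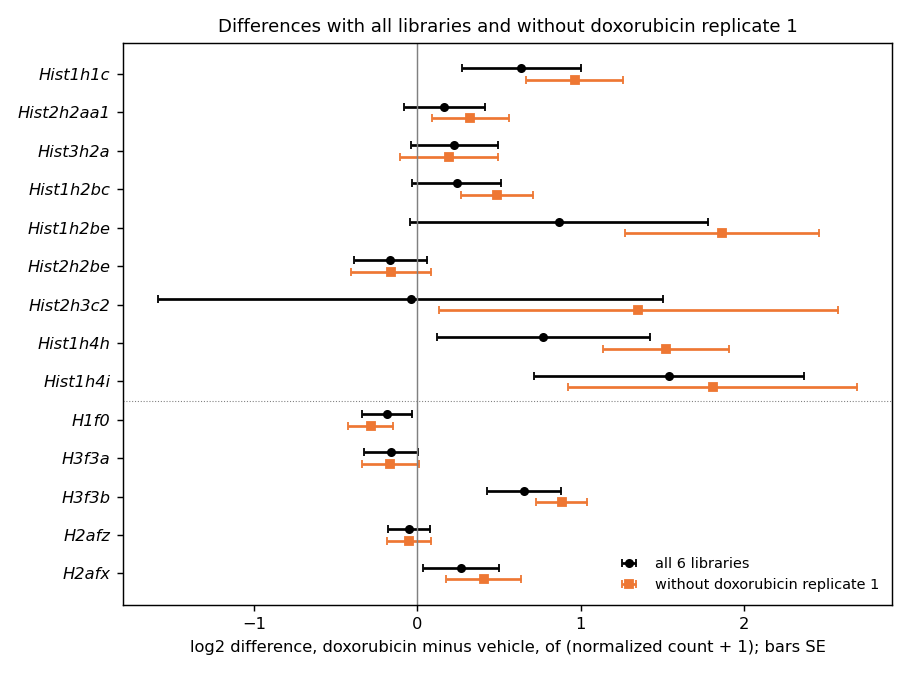
Log2 difference, doxorubicin minus vehicle (horizontal axis, bars of 1 SE), for the 9 tested clustered genes above the dotted line and 5 replacement or linker histone genes outside the clusters below it, with all 6 libraries (circles) and without doxorubicin replicate 1 (squares). Hist1h4h moves from 0.77 to 1.52 and Hist1h1c from 0.64 to 0.96 when that library is left out, while H1f0 stays below 0.

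Doxorubicin replicate 2 was the highest library for 5 of the 9 tested members, and for 19.7% of all genes tested. Replicate 3 was the highest for 2, against 28.5% of all genes. Libraries also split by transcripts that tell the sexes apart, with vehicle replicates 1 and 2 and doxorubicin replicate 2 holding Y-linked transcripts and the others Xist. Within the first class the difference was 1.51 for Hist1h1c and 2.10 for Hist1h4h, and within the second 0.25 and 0.33, as values with no test.

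Linker and core histones were then set against each other by summing every clustered row, low and zero rows included, so H1f0 was not counted. The linker sums were 312, 266 and 279 with vehicle and 278, 807 and 364 after doxorubicin. The core sums were 1219, 1023 and 911 against 899, 2089 and 1259. Both sums were highest in doxorubicin replicate 2, and both had replicate 1 inside or below the vehicle range. On the log2 scale the difference of group means was 0.60 for linker and 0.35 for core histones, and the SD among doxorubicin libraries was 0.80 and 0.61. The linker sum was 0.256, 0.260 and 0.306 of the core sum with vehicle and 0.309, 0.386 and 0.289 after doxorubicin. The ratio overlapped between groups, with a log2 difference of 0.25. Since 1 gene made up the linker sum, the ratio compares Hist1h1c with the core rows: without Hist1h1c the linker sum differed by -0.23.

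**Figure D4:**
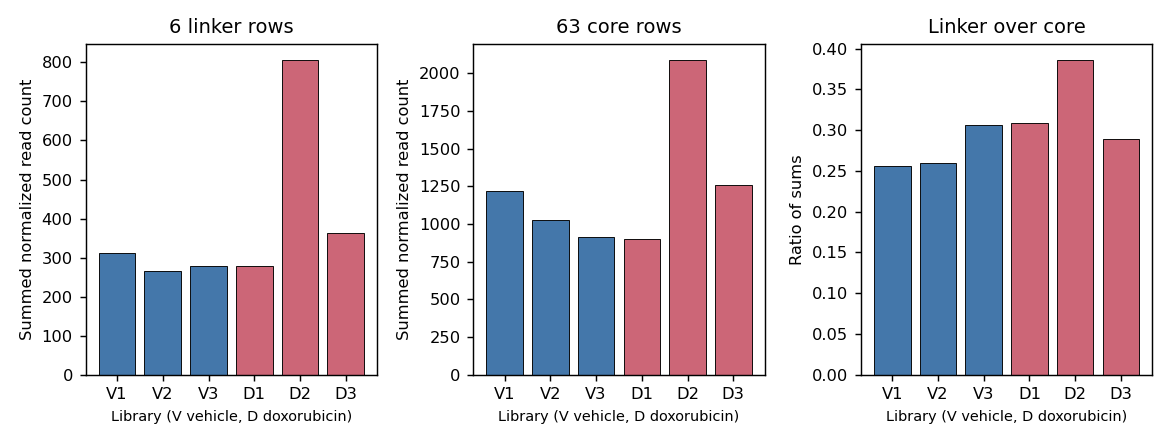
Summed normalized read count of the 6 linker rows and of the 63 core rows, and the ratio of the sums (vertical axes), in each library (horizontal axis, V vehicle and D doxorubicin with the replicate number). Doxorubicin replicate 2 is the highest bar in each panel, at 807, 2089 and 0.386, and the ratio of doxorubicin replicate 3 (0.289) lies inside the vehicle range.

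Within the core, H2A, H2B and H4 were highest in doxorubicin replicate 2, and H3 was as high in replicate 1 as in replicate 2. In doxorubicin replicate 2 the summed H4 rows stood 2.15 above the vehicle mean on the log2 scale, H2B 0.80, H3 0.63 and H2A 0.60. In replicate 3 they stood 0.86, 0.22, 0.06 and 0.05 above it, and in replicate 1 at -0.47, -0.26, 0.63 and -0.09. The H4 sum was 71.4% to 92.8% Hist1h4h and the H2B sum 80.9% to 84.8% Hist1h2bc, so each class value is largely that of 1 gene. By cluster, the Hist1h rows on chromosome 13 stood at -0.23, 1.29 and 0.38 from the vehicle mean in doxorubicin replicates 1 to 3, and the Hist2h rows on chromosome 3 at -0.07, 0.53 and -0.11. The log2 differences of the summed rows were 0.48 and 0.11.

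The 60 rows that were not tested held few reads. Together they summed to 47.0, 43.3 and 39.7 normalized counts with vehicle and 70.4, 76.7 and 69.3 after doxorubicin, about 46 to 75 and 45 to 67 reads. Leaving out the Hist2h3c1 row, whose signal alternates with Hist2h3c2, gave 28.5, 43.3 and 39.7 against 37.9, 76.7 and 69.3. Replicate 1 then fell inside the vehicle range and only replicates 2 and 3 stood above it, as for the linker sum. Single rows behind this, named after their values were seen, were Hist1h2bq (at most 1.28 with vehicle, 10.2 in doxorubicin replicate 3), Hist3h2ba (at most 2.47, 11.0 in replicate 3) and Hist1h3i (at most 1.67, 9.62 in replicate 2). Each of these values stands for 8 reads or fewer. Hist1h2bq shared 97.3% of its 50-base windows with other genes, Hist3h2ba 22.1% and Hist1h3i 87.6%, so reads may pass between rows. Hist1h2bg was at 0 with vehicle and at 1.02, 1.20 and 7.66 after doxorubicin, about 1, 1 and 5 reads.

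The upstream sequence of the 2 members with the smallest p once doxorubicin replicate 1 was left out is shown because their values were highest in the same library. Each line gives the 250 bases before the RefSeq start (GRCm38.p6, plus strand, chr13:23738557-23738806 and chr13:23530794-23531043), with motif matches on either strand in capitals. The motifs were the AC box of H1 genes (AAACACA), the box read as CCAAT, and a TATA box written TATANA, whose matches overlap each other.
Hist1h1c: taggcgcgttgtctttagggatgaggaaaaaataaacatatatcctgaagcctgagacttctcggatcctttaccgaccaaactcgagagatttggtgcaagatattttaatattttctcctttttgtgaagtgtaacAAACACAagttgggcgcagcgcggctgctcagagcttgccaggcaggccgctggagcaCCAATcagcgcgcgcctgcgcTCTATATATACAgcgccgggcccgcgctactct
Hist1h4h: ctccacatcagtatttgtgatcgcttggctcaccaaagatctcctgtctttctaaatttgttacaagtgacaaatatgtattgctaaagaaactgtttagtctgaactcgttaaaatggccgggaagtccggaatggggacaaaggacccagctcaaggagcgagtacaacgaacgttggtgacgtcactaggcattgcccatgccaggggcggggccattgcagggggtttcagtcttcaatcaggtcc
The Hist1h1c window holds the 3 elements in the order known for H1 genes, an AC-rich box, a CCAAT box and a TATA box, and the Hist1h4h window holds none of these letters. Counted over RefSeq windows of 300 bases, AAACACA was in 5 of the 6 linker windows, 9 of the 61 member windows and 7.18% of all 32851 windows. CCAAT was in 6 of the 6, 52 of the 61 and 37.4%, and TATANA in 6, 48 and 24.7%. These are letter matches and not measured binding.

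Replacement histone genes, which lie outside the clusters, were far better covered. All 11 genes of that list were tested, limma called 0 with all 6 libraries, and 5 differences were positive and 6 negative with a median of -0.05. H3f3a and H3f3b encode the same H3.3 protein but did not move alike. H3f3b had 1277, 1086.5 and 1078 with vehicle and 1300, 2199 and 2032 after doxorubicin, with groups that did not overlap and a log2 difference of 0.65 (SE 0.23, limma adjusted p 0.0963). H3f3a had 2656, 2214 and 2133 against 2091, 2175 and 1976, a difference of -0.16 (SE 0.17, limma adjusted p 0.510), which was 0.14 with equal totals and 0.09 with quantile normalization. H2afz (H2A.Z) differed by -0.05 (0.25 with equal totals) and H2afx, the H2A variant phosphorylated at DNA breaks, by 0.27, with limma adjusted p of 0.788 and 0.423. Cenpa, the centromeric H3 variant, had the smallest p of the list, with 263, 218 and 200 with vehicle and 177, 69.5 and 39.4 after doxorubicin. Its log2 difference was -1.51 (SE 0.48, limma adjusted p 0.0878), with doxorubicin replicates 2 and 3 as its lowest libraries. Without doxorubicin replicate 1, limma called 2 genes of the list higher and 1 lower, H3f3b among the former at 0.89 (adjusted p 0.00348) and Cenpa as the latter at -2.09 (adjusted p 0.000789). Library weights also gave 2 higher and 1 lower. Over all genes tested, these settings called 41.1% and 34.2% in either direction.

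The factors that make and trim histone messages were tested for 15 of 16 genes. limma called 0 with all 6 libraries, and 5 differences were positive and 10 negative with a median of -0.07. Of these, 1 gene stood apart from its vehicle values on the higher side and 3 on the lower side, against 41.8% of all genes tested on either side. Slbp, the stem-loop binding protein, had 112, 110 and 79.3 with vehicle and 101, 119 and 132 after doxorubicin (log2 difference 0.23, SE 0.20, limma adjusted p 0.430). Npat, the coactivator of histone gene transcription, had 111, 101 and 102 against 101, 124 and 112.5 (0.10, SE 0.16, limma adjusted p 0.661). The smallest p was that of Casp8ap2, a component of the histone locus body, with 77.5, 93.1 and 92.4 against 121, 117 and 148 and no overlap (0.54, SE 0.17, limma adjusted p 0.0878). Snrpd3, a protein of the Sm ring that the U7 particle also holds, was the other gene of the list with an unadjusted p under 0.05, at 278, 215 and 244 against 208, 160 and 159 (-0.49, SE 0.18, limma adjusted p 0.101). Without doxorubicin replicate 1, limma called 1 gene of the list higher, Casp8ap2 at 0.58 (adjusted p 0.0401), and 1 lower, and with library weights it called 0. Among 14 histone chaperones 13 were tested, with 0 called, and 9 differences were positive and 4 negative. Nap1l4, a carrier of H2A and H2B, had the smallest p of these, at 1439, 1482 and 1572 against 1189, 864 and 753 (-0.70, SE 0.20, limma adjusted p 0.0859). Without doxorubicin replicate 1, limma called 3 chaperones higher and 2 lower, among them Nap1l4 at -0.89 (adjusted p 0.00263), and library weights gave 2 and 1. The counts of both lists stand against 41.1% and 34.2% of all genes tested called in either direction under these settings.

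Genes of S phase did not form one pattern beside the histones. Of 22 genes 17 were tested, limma called 0 with all 6 libraries, and 11 differences were positive and 6 negative with a median of 0.22. Mcm7, a subunit of the replicative helicase, had 83.8, 77.4 and 67.4 with vehicle and 113, 150 and 144 after doxorubicin (log2 difference 0.82, SE 0.19, limma adjusted p 0.0859), with no overlap. Pcna, the sliding clamp of DNA replication, had 352, 307 and 290.5 against 344, 378 and 425 (0.27, SE 0.15, limma adjusted p 0.227). Mki67, the Ki-67 proliferation marker, had 70.3, 49.2 and 60.1 against 93.2, 6.03 and 10.2, and Top2a, the topoisomerase II of dividing cells, had 34.1, 19.3 and 29.3 against 39.8, 4.81 and 4.32. Both markers of dividing cells were therefore lowest in the doxorubicin libraries with the higher Hist1h1c and Hist1h4h values and highest in doxorubicin replicate 1. Their log2 differences were -1.63 (SE 0.87) and -1.37 (SE 0.78), with limma adjusted p of 0.211 and 0.237. Without doxorubicin replicate 1 both were called lower, Mki67 at -2.77 (limma adjusted p 0.000758) and Top2a at -2.32 (limma adjusted p 0.00469), while Mcm7 was called higher at 0.94 (limma adjusted p 0.00477). Over the list that setting called 3 genes higher and 5 lower, and library weights called 2 higher and 3 lower. Of all genes tested, 41.1% and 34.2% were called in either direction, and 19.3% and 15.7% higher, under the same settings.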

How the data were processed

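RNA from 6 libraries, 3 per group, was analysed, grouped and numbered by title. Per the series' design text, reads were aligned with STAR in BaseSpace to mm10 with RefSeq genes; the submitters' processing notes name STAR 2.6.1a and Salmon. The deposited file holds 1 signal value per gene and library, a read count that the authors normalized. Its counter, strand setting, scaling and filters: not given in the sources used here.

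Members and gene lists were chosen with earlier results of these data known. Values were used as deposited. After log2(value + 1), which understates the change of low genes, limma 3.58.1 (R 4.3.3) tested genes with a mean of at least 10 (mean-dependent prior, two-sided, Benjamini-Hochberg over 12477 genes, threshold 0.05); the fit was tested on simulated data. Sums over members carry no test, and with 3 libraries against 3 an exact permutation test cannot give a p below 0.1. Named were every linker gene above 0, every tested core gene, 10 preset other genes and the smallest p of each list. The worth of 1 read was taken as the most common low value of a library; 80.0% to 92.5% of low values lay within 0.1 of a whole multiple, so no count test was used. All 69 members matched GENCODE M21 (GRCm38) by symbol and 68 matched 1 RefSeq synonym; 61 had a RefSeq promoter window. Coordinates count from 1. The alternatives tried were pseudocounts of 0.5 and 8, no filter, a minimum mean of 50, 2 scalings, 2 moderation settings, a replicate term, a sex-transcript term, library weights and leaving out each library. Figures used matplotlib 3.10.9.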

Additional observations from a re-analysis of the deposited data

How the results depend on the processing

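Library weights and the sums restricted to some rows were chosen after the data were seen. Leaving out each library in turn gave 0 to 2409 genes higher and 0 to 2718 lower over all genes, 0 to 3 members higher and 0 lower, and 0 to 4 members above and 0 to 1 below with groups apart. It moved the median of tested core members from -0.0071 to 0.92. Members with groups apart numbered 1 with no filter (52 members) and 1 with equal totals. The share of all genes with groups apart was taken only for the main setting (41.8%). The counts of members apart in the other settings, leaving out a library among them, therefore have no share to be read against. With no filter the median of linker members was -0.21 over 5 genes. Library weights called 1954 genes higher and 2318 lower, 2 of them members. The linker sum without its most abundant row differed by -0.23. Signs turned with equal totals for Hist2h2be (0.13), Hist2h3c2 (0.20), H3f3a (0.14), H2afz (0.25) and H1f0 (0.12). That setting moved the median of all genes tested from -0.0046 to 0.30. With library weights they turned for Hist2h2be (0.0009) and Hist2h3c2 (0.25). Hist2h3c2 also moved between -1.46 and 1.35 when libraries were left out. Without doxorubicin replicate 2, signs turned for Hist1h2bc (-0.0444) and Hist2h2aa1 (-0.084), with ranges up to 0.49 and 0.3256. With quantile normalization they turned for Hist3h2a (-0.0058) and H3f3a (0.0887). Beyond the shift of the median, the cause of these turns was not tested.

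Replicate numbers are not said to pair mice. Same-numbered libraries correlated at -0.13, 0.03 and -0.09, and with a replicate block limma called 0 genes and 0 members. Of the 43 low rows 37 had a mean under 2 normalized counts, and whether a difference could be detected at that level was not tested.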
